A study of Mus musculus with 8 samples.

Results

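The structural and nuclear noncoding RNAs of mouse adipose-derived stem cells (ADSCs) were followed through conventional 2D cultures and 3D organotypic cultures. Of 10 named genes, 7 had values among the 24346 genes listed by symbol, namely Rmrp, Rpph1, Terc, Malat1, Neat1, Snhg1 and Gas5. Rn7sk, Rny1 and Rny3 were not analysed here. The genes were chosen by name, with their FPKM levels in these same libraries already known, so the levels and shares below are a description of these cultures.

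The cells came from gonadal adipose tissue of wild-type, 12-week-old male BALB/c mice and were primary cultures, labelled mesenchymal stem cells. Mice 2, 3, 4 and 5 gave 1 library each of a 2D culture, and mice 1, 4, 5 and 7 gave 1 each of a 3D culture in Matrigel, so both cultures were sequenced for mice 4 and 5. The study's methods give no sort before culture, and the labels give neither passage nor medium. Total RNA was sequenced after ribosomal RNA depletion, and the estimated depth was between 16.4 M and 17.28 M fragments in 2D and between 14.46 M and 15.56 M in 3D.

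The labelled cell type was checked against its markers. The summed level of 12 stromal markers was between 1871 and 4304 FPKM (fragments divided by transcript length and by library depth) in 2D and between 5.26 and 9.51 FPKM in 3D, and 11 of the 12 fell. The summed level of 12 epithelial markers was between 32.8 and 783 FPKM in 2D and between 2220 and 2680 FPKM in 3D, and 11 of the 12 rose. Of the markers of other cell types, 0 of 4 endothelial, 1 of 5 macrophage, 0 of 5 mesothelial and 2 of 4 adipocyte genes passed limma's adjusted threshold (0, 2, 0 and 2 at an unadjusted p below 0.05). The macrophage gene, Cd68, rose, and the adipocyte genes, Lpl and Pparg, fell. Beside all these marker counts, 41.5% of the 18862 genes tested passed, 21.2% higher and 20.3% lower in 3D. Thus the defining stromal markers were near 0 in the 3D libraries, and each culture difference below also compares libraries of different marker make-up. The part of this difference in the levels of the noncoding RNAs was not tested. In such bulk samples, a change in the number of cells of a type and a change in the RNA per cell cannot be told apart.

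Most of these RNAs act without being translated. Rmrp and Rpph1 are the catalytic or structural RNA cores of RNase MRP and RNase P, sister particles that process precursor ribosomal RNA and precursor transfer RNA, and both are made by RNA polymerase III. Terc is the template RNA of telomerase. Malat1 and Neat1 are neighbouring polymerase II transcripts that stay in the nucleus, in nuclear speckles and in paraspeckles, respectively, and Neat1 is the scaffold without which paraspeckles do not form. Snhg1 and Gas5 carry small nucleolar RNAs (snoRNAs) in their introns, and their spliced transcripts are known targets of nonsense-mediated decay.

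The sequences of Rmrp and Rpph1 are given because these RNAs were the most abundant of the 7 on the FPKM scale in every library, and capitals mark the 2 longest runs, of 9 bases each, that the pair shares. Rmrp lies on the minus strand of GRCm38 (mm10) at chr4:43492785-43493059 and Rpph1 on the minus strand at chr14:50807449-50807767. Global alignment gave 160 identical positions, or 50.2% of the longer RNA.
Rmrp: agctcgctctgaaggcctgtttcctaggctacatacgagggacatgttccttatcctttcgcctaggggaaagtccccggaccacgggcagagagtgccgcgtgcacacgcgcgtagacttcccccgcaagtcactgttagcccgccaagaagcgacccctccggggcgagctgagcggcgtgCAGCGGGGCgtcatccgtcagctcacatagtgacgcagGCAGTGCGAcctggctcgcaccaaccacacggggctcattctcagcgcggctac
Rpph1 (bases 1 to 260 of 319): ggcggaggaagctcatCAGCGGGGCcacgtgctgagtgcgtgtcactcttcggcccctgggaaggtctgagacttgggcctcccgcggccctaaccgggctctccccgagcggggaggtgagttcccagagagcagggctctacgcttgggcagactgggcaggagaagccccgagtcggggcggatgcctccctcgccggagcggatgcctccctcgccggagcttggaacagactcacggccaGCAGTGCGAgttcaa
Terc, on the minus strand at chr3:96414437-96414833, is shown by its first and last 60 bases, with the template bases (positions 3 to 9) and the ACA box, which ends 3 bases before the 3′ end, in capitals.
Terc (bases 1 to 60): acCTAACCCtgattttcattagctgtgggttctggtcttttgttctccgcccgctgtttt
Terc (bases 338 to 397): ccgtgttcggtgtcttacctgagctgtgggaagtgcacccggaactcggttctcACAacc
These sequences are those of GENCODE M21 transcripts, with Rmrp trimmed to its RefSeq ends and Terc to its RefSeq start. The 3 RNAs are 275, 319 and 397 bases long. Malat1 (chr19:5795690-5802672) and Neat1 (chr19:5824708-5845478) lie 22035 bases apart on the minus strand, Snhg1 (chr19:8723475-8726443) and Gas5 (chr1:161034422-161038539) on the plus strand.

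The 7 RNAs spanned a wide range of abundance. Rmrp ranked 1 or 2 among all genes in each library and Rpph1 ranked between 1 and 6, while Malat1 ranked between 5 and 86. Neat1 ranked between 58 and 1873, Terc between 520 and 4437, Snhg1 between 933 and 1858 and Gas5 between 1544 and 3251. FPKM divides by length, so short RNAs rank high for a given number of fragments. With the annotated length, the FPKM of Rmrp corresponds to at most 2.48% to 4.37% of the fragments in 2D and at most 3.80% to 4.75% in 3D. Malat1, with a transcript of 6983 bases, held at most 0.862% to 4.07% in 2D and 3.75% to 5.40% in 3D. These shares are upper limits, because the effective length that Cufflinks uses is shorter than the annotated one.

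**Figure D1:**
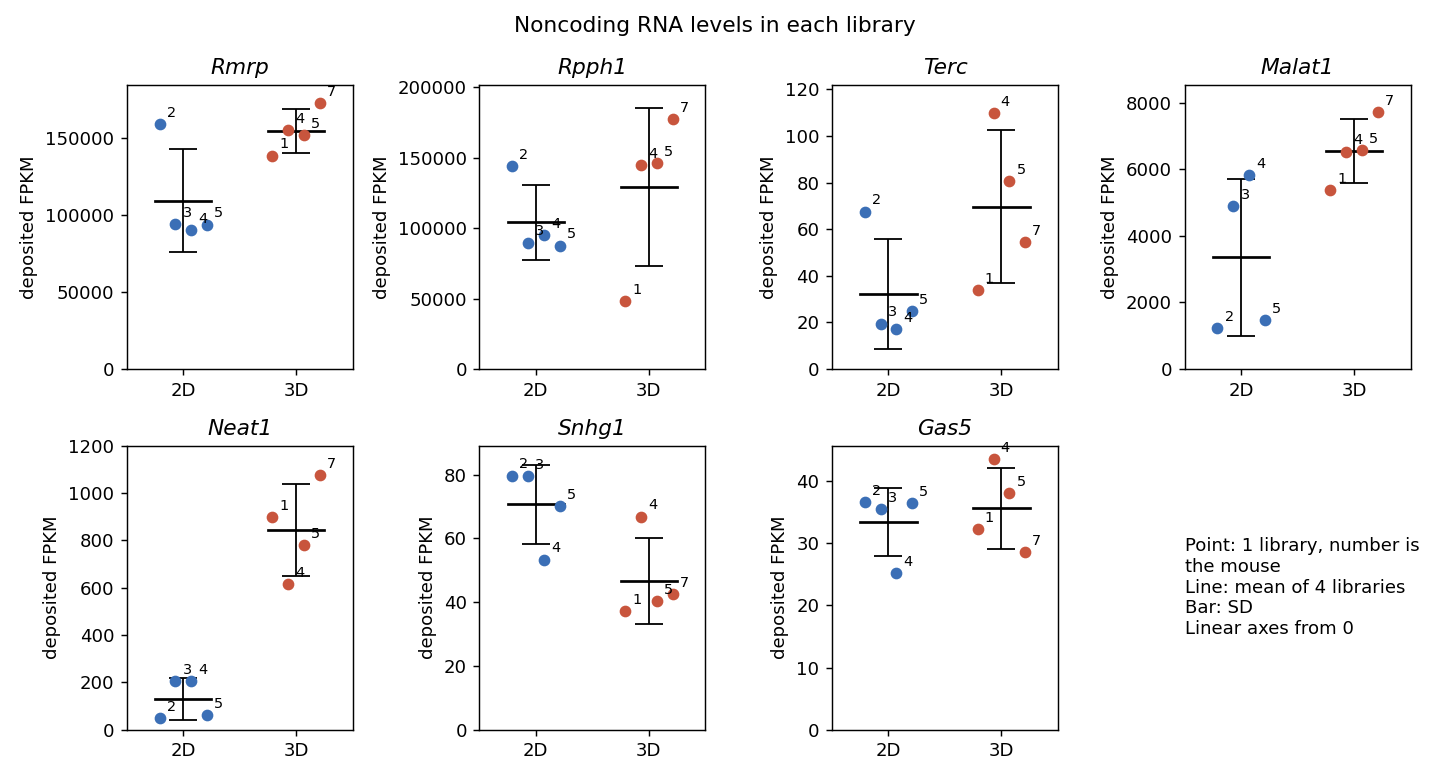
Deposited FPKM of the 7 noncoding RNAs, on linear axes from 0, with 1 point per library (number, mouse), the mean of 4 libraries (line) and the SD (bar). The 4 3D values of Neat1, between 614 and 1076 FPKM, lie above the 4 2D values, between 47.6 and 205 FPKM, while the points of the other 6 RNAs overlap between the cultures.

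Among the 7 RNAs, 2 passed an adjusted p below 0.05 in limma's test, both of them higher in 3D, beside 41.5% of the 18862 genes tested (21.2% higher and 20.3% lower) and 53.2% of the 12577 genes whose mean was 1 FPKM or more. They were Neat1 and Terc. In 1 of the 7, Neat1, the libraries of the cultures did not overlap, beside 42.5% of all genes (21.6% higher and 20.9% lower). On the deposited values the same 1 of 7 did not overlap, beside 45.5% of all genes and 56.5% of those whose mean was 1 FPKM or more. With the deposited values left without quantile normalization, the genes that passed were Neat1 and Snhg1. Neither count of the 7 was above its share among all genes.

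Rmrp, the RNA of RNase MRP, was at 158960, 93729, 90072 and 93611 FPKM in 2D mice 2, 3, 4 and 5. The 3D cultures of mice 1, 4, 5 and 7 had 138354, 154817, 151652 and 172610 FPKM. The 2D library of mouse 2 lay within the 3D values, and the other 3 2D libraries lay below all of them. The mean was 109093 ± 33288 FPKM in 2D and 154358 ± 14104 FPKM in 3D (SD, n = 4 each). The difference of mean log2 FPKM was 0.54 ± 0.21 (SE; exact permutation test, two-sided, p = 0.114, where the smallest p these 8 libraries allow is 0.0286). Without the 2D library of mouse 2, left out after the values were seen, the difference was 0.73. The exact permutation p was then 0.0571, the smallest two-sided p that the libraries left allow, because they no longer overlap. Quantile normalization replaced the values of this gene by 2 distinct levels, so that the limma log2 fold change was 0.00 and says nothing of its direction. The limma interval, from -28.5 to 28.5, was widened by the intensity trend of the fit. The SE was 12.3 with the trend and 0.19 without it, and 19.4 with the trend on the deposited values.

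Rpph1, the RNA of RNase P, was at 143868, 89652, 95028 and 87622 FPKM in 2D and at 48388, 144978, 146344 and 177470 FPKM in 3D, in the same order of mice. The 3D library of mouse 1 was the lowest of all 8, and the other 3D libraries lay above all 2D libraries. The difference of mean log2 FPKM was 0.19 ± 0.46 (SE, exact permutation p = 0.657). Without the 3D library of mouse 1 it was 0.61 with an exact permutation p of 0.0571, again the smallest that the libraries left allow. The limma log2 fold change was -0.41, and its sign was opposite to that on the deposited values. Its interval, from -17.7 to 16.9, was also widened by the intensity trend, with an SE of 7.46 with the trend and 0.83 without it.

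Rpph1 was close to Rmrp in 7 of the 8 libraries. The ratio of Rpph1 to Rmrp, both in FPKM, was between 0.905 and 1.06 in the 4 2D libraries. It was 0.936, 0.965 and 1.03 in the 3D libraries of mice 4, 5 and 7 and 0.350 in that of mouse 1. In the latter library Rprl3, an RNase P RNA-like gene whose 290 bases match Rpph1 at 77.1% of the longer sequence, was at 24238 FPKM, against 2.44 to 12.2 FPKM in the other 7. The sum of Rpph1 and Rprl3 there was 72626 FPKM, or 0.525 of Rmrp. Fragments that fit both genes may have been split between them, so the Rpph1 value of this library is uncertain, and the part of Rprl3 in it was not tested. Rprl1 and Rprl2, related genes, were at 6.14 and 13.8 FPKM in this library and at 1.39 FPKM or less in the others.

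**Figure D2:**
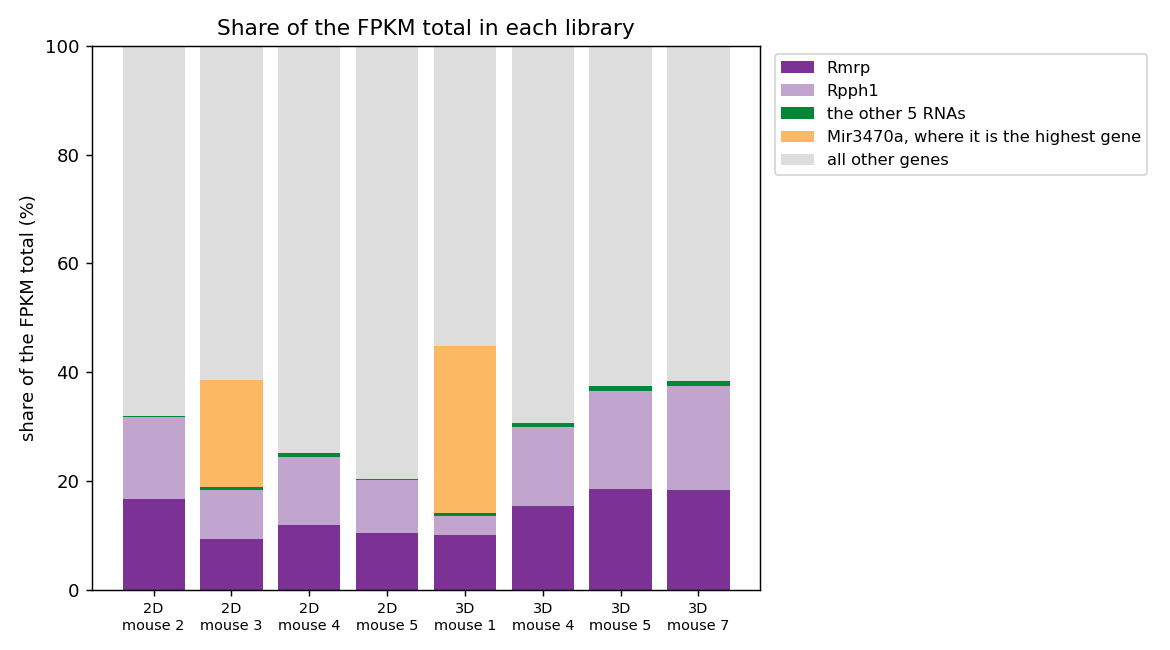
Share of the FPKM total (%) in each library, stacked for Rmrp, Rpph1, the other 5 RNAs, Mir3470a where it was the highest gene, and all other genes. Rmrp and Rpph1 take between 13.6% and 37.4%, and the block of Mir3470a stands in the 2D library of mouse 3 (19.7%) and the 3D library of mouse 1 (30.7%).

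The 7 RNAs together held 32.0%, 18.8%, 25.2% and 20.4% of the FPKM total in the 2D libraries of mice 2, 3, 4 and 5. In the 3D libraries of mice 1, 4, 5 and 7 they held 14.1%, 30.7%, 37.5% and 38.3%. The share was lowest and highest within the 3D cultures, and the cultures overlapped, with means of 24.1% ± 5.92 in 2D and 30.2% ± 11.2 in 3D (SD, n = 4 each). Nearly all of it was Rmrp and Rpph1, and the other 5 RNAs held between 0.154% and 0.807% in 2D and between 0.466% and 0.954% in 3D. Mir3470a, a microRNA gene listed at 197217 FPKM in 2D mouse 3, at 419827 FPKM in 3D mouse 1 and at 0 in the other 6 libraries, enlarged the total in those libraries. With Mir3470a left out of the total, the share was 23.4% in 2D mouse 3 and 20.3% in 3D mouse 1. Genes with a longest transcript under 300 bases, which include Rmrp, held 19.5% to 40.6% of the total in 2D and 28.7% to 63.2% in 3D. FPKM shares are not shares of molecules counted, and no counting interval is available for them.

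Terc, the telomerase template RNA, was at 67.6, 19.5, 17.2 and 24.7 FPKM in 2D and at 33.8, 109.8, 80.7 and 54.5 FPKM in 3D. The 2D library of mouse 2 was above 2 of the 3D libraries, and the other 3 were below all of them. The log2 fold change on quantile normalized values was 1.55 ± 0.49 (SE, limma adjusted p = 0.0358). On the deposited values it was 1.18 with a limma adjusted p of 0.0925. The call was lost when any of the 2D libraries of mice 3, 4 and 5 or the 3D libraries of mice 4, 5 and 7 was left out (log2 fold change 1.29 to 1.65, limma adjusted p from 0.0620 to 0.0885). With the mouse as a block the log2 fold change was 2.52 with a limma adjusted p of 0.120, and with only mice 4 and 5 it was also 2.52, with a limma adjusted p of 0.0143. The FPKM values correspond to between 118 and 446 fragments at most in a 2D library and between 194 and 678 at most in a 3D library.

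Of 12 genes of telomerase and H/ACA particles, 2 rose and 0 fell, and on the deposited values 2 rose and 1 fell. The median log2 fold change was 0.01, beside 0.00 over all genes. Beside these counts and those of the gene lists below, 21.2% of all genes tested rose and 20.3% fell. Tert, the reverse transcriptase that carries Terc, rose by 0.84 ± 0.21 (SE, limma adjusted p = 0.0153), from 1.13 to 2.21 FPKM in 2D to 3.47 to 6.32 FPKM in 3D. Naf1, an assembly factor of H/ACA particles, rose by 0.61 (limma adjusted p = 0.0210), a call lost without 2D mouse 3 or 3D mouse 7 (limma adjusted p up to 0.0563). Dkc1, which encodes dyskerin and binds the ACA box of Terc, had a log2 fold change of -0.43 (limma adjusted p = 0.196).

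Malat1, the speckle RNA, was at 1234, 4892, 5833 and 1458 FPKM in 2D mice 2, 3, 4 and 5 and at 5375, 6538, 6574 and 7733 FPKM in 3D. Within the 2D cultures, mice 2 and 5 were low and mice 3 and 4 high, and the 2D library of mouse 4 exceeded the 3D library of mouse 1. Quantile normalization changed the 2D value of mouse 4 to 18800 FPKM and the 3D value of mouse 1 to 3905 FPKM. On the normalized values the log2 fold change was 1.06 ± 0.99 (SE, 95% interval -1.25 to 3.36, limma adjusted p = 0.430). There, leaving out 2D mouse 2, 5 or 4 gave 0.53, 0.57 or 1.95 (limma adjusted p = 0.729, 0.705 or 0.0774). On the deposited values it was 1.28 ± 0.71 (SE, limma adjusted p = 0.182). The difference passed in neither fit, and the interval on normalized values spans both directions.

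Neat1, the paraspeckle scaffold, was at 47.6, 205.1, 205.0 and 61.1 FPKM in 2D and at 900, 614, 781 and 1076 FPKM in 3D. These gene values do not separate its 4 annotated transcripts, of 711 to 20771 bases, and paraspeckles were not measured. All 3D libraries were above all 2D libraries, and the lowest 3D library was that of mouse 4. The 2D values fell into the same pairs as those of Malat1, with mice 2 and 5 low. The log2 fold change was 3.37 ± 0.56 (SE, 95% interval 2.08 to 4.66, limma adjusted p = 0.00217), and it was between 3.00 and 3.73 when each library was left out in turn, past the threshold each time. On the deposited values it was 2.96 (limma adjusted p = 0.00262). A fit with a block for the mouse (1 residual degree of freedom) gave 3.03 with a limma adjusted p of 0.211, and with only mice 4 and 5 it was 3.07 with a limma adjusted p of 0.0675.

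The ratio of Neat1 to Malat1, both in FPKM, was nearly the same in the 2D libraries at 0.0386, 0.0419, 0.0351 and 0.0419, although each RNA varied over 4-fold among them. In the 3D libraries of mice 1, 4, 5 and 7 it was 0.167, 0.0939, 0.119 and 0.139. The cultures did not overlap, and this ratio, chosen after the values were seen, was not tested. Most marker sums split by the same pairs of 2D libraries. Stromal markers were higher in mice 2 and 5 (3172 and 4304 FPKM) than in mice 3 and 4 (1978 and 1871 FPKM). Endothelial and adipocyte markers were lower in mice 2 and 5, as were the epithelial and mesothelial markers. Macrophage markers did not follow the pairs. The summed epithelial markers were at 32.8 and 34.3 FPKM in mice 2 and 5 and at 193 and 783 FPKM in mice 3 and 4. The summed levels of 5 mesothelial markers were at 1.41 and 0.333 FPKM in mice 2 and 5 and at 853 and 2218 FPKM in mice 3 and 4. In 3D the summed mesothelial markers were between 2.26 and 30.4 FPKM. The part of any of these markers in the levels of Malat1 and Neat1 was not tested.

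**Figure D3:**
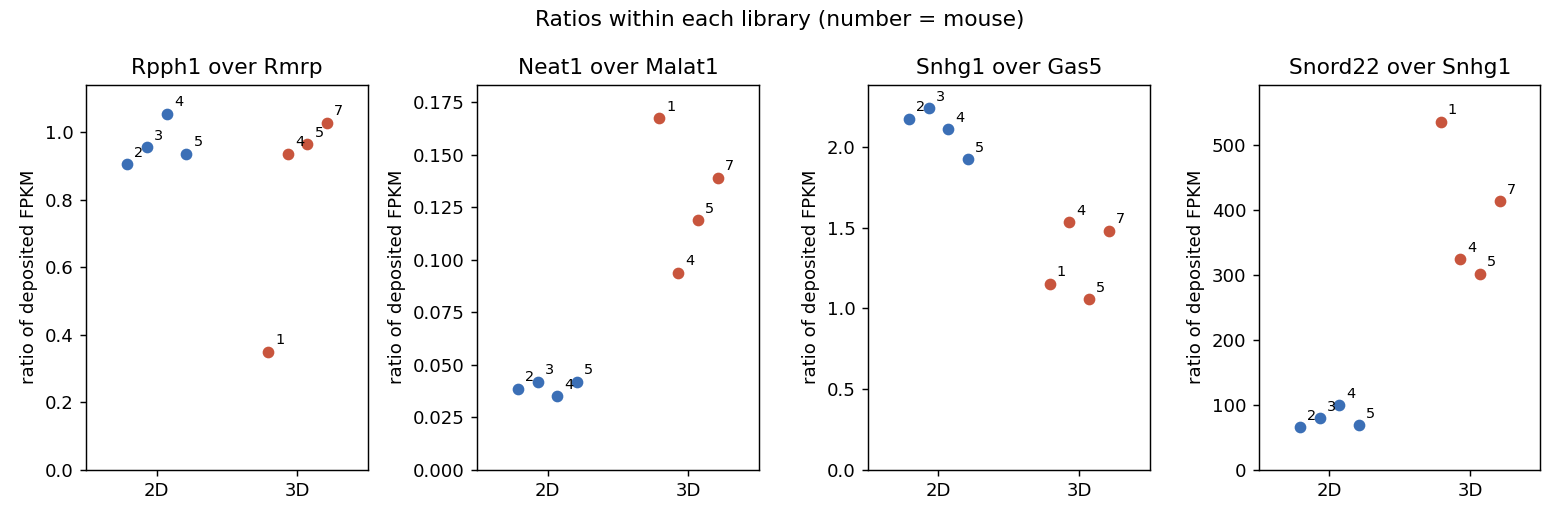
Ratios of deposited FPKM within each library, on linear axes from 0, with 1 point per library (number, mouse). Rpph1 over Rmrp stays between 0.905 and 1.06 except in the 3D library of mouse 1 (0.350), whereas the cultures separate in Neat1 over Malat1, Snhg1 over Gas5 and Snord22 over Snhg1.

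Proteins of the bodies that Neat1 and Malat1 mark were read from the same fit. There 21.2% of all genes rose and 20.3% fell, and 53.2% of genes with a mean of 1 FPKM or more passed in either direction. Of 12 paraspeckle proteins, 7 rose and 1 fell, with a median log2 fold change of 0.63, and on the deposited values 5 rose and 4 fell (median 0.36). Ewsr1, an RNA-binding protein of the FET family, rose by 0.96 (limma adjusted p = 0.000383) and Pspc1, paraspeckle component 1, by 0.87 (limma adjusted p = 0.00338). Nudt21, a subunit of cleavage factor Im, fell by 0.30 (limma adjusted p = 0.0243), a call lost without 2D mouse 2, 2D mouse 5 or 3D mouse 7 (limma adjusted p up to 0.0605). Of 12 nuclear speckle proteins, 7 rose and 0 fell, with a median of 0.48, and on the deposited values 3 rose and 2 fell (median 0.12). Srrm2, a core component of speckles, was between 34.3 and 42.4 FPKM in 2D and between 78.6 and 105 FPKM in 3D and rose by 1.67 ± 0.12 (SE, limma adjusted p = 4.13e-05). Srrm1, a related splicing coactivator, rose by 1.35 (limma adjusted p = 6.14e-05). For the 3683 genes with a mean of 20 to 200 FPKM, which include Ewsr1, Nudt21, Srrm1 and Srrm2 but not Pspc1, the log2 fold change was higher by a median of 0.25 after quantile normalization than on the deposited values.

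Of 13 nuclear long noncoding RNAs, Malat1 and Neat1 included, 5 rose and 3 fell, beside 21.2% and 20.3% of all genes. Firre, an X-linked nuclear RNA, was at 2.16, 8.17, 7.51 and 2.68 FPKM in 2D mice 2, 3, 4 and 5 and between 29.2 and 38.8 FPKM in 3D, and rose by 2.72 ± 0.33 (SE, limma adjusted p = 0.000445). Its 2D libraries showed the low values of mice 2 and 5 that Malat1 and Neat1 showed. Rian and Meg3, maternally expressed RNAs of the imprinted Dlk1-Dio3 region, both fell. Rian was between 63.0 and 137 FPKM in 2D and at 0.0193 FPKM or less in 3D, and Meg3 was between 69.3 and 230 FPKM in 2D and at 0.0108 FPKM or less in 3D.

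Snhg1, a snoRNA host, was at 79.7, 79.5, 53.3 and 70.2 FPKM in 2D and at 37.2, 66.8, 40.3 and 42.4 FPKM in 3D. The 3D library of mouse 4 lay among the 2D values, and that mouse gave the lowest 2D and the highest 3D value. The log2 fold change was -0.19 ± 0.21 on quantile normalized values (SE, 95% interval -0.69 to 0.30, limma adjusted p = 0.495). It was -0.61 on the deposited values (limma adjusted p = 0.0464). Its sign turned to 0.20 with the mouse as a block (limma adjusted p = 0.752) and also with only mice 4 and 5, so no direction is given.

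Gas5, the other snoRNA host, was at 36.6, 35.4, 25.2 and 36.4 FPKM in 2D and at 32.2, 43.5, 38.0 and 28.6 FPKM in 3D. The values of the cultures overlapped over most of their range. The log2 fold change was 0.37 ± 0.17 on quantile normalized values (SE, 95% interval -0.02 to 0.76, limma adjusted p = 0.117) and 0.09 on the deposited values. The ratio of Snhg1 to Gas5 in FPKM was between 1.93 and 2.24 in 2D and between 1.06 and 1.54 in 3D without overlap, and it was not tested.

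The annotation places 8 small RNAs inside Snhg1 and 10 inside Gas5 on the same strand, and 1 of each had values. Snord22, in Snhg1, is shown because it exceeded its host. It lies on the plus strand at chr19:8725866-8725991, its 126 bases end in a D box (CTGA, in capitals at positions 118 to 121), and it belongs to the C/D box snoRNAs.
Snord22: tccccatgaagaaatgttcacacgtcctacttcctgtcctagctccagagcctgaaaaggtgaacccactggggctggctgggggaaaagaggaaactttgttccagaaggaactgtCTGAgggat
It was at 5221, 6300, 5274 and 4812 FPKM in 2D and at 19907, 21665, 12147 and 17539 FPKM in 3D. The 3D values were all above the 2D values, but in a gene this short FPKM depends strongly on the assumed fragment length. Quantile normalization left 6 distinct values, which overlapped between the cultures. On these the limma log2 fold change was 1.20 ± 0.90 (SE, limma adjusted p = 0.324). On the deposited values it was 1.70 ± 1.11 (SE, limma adjusted p = 0.254). That SE is wide for values that varied by 11.7% in 2D and 23.2% in 3D (SD over mean). Neither fit passed the threshold, and over all alternatives the limma adjusted p was between 0.0235 and 0.658. The ratio of Snord22 to Snhg1 in FPKM was between 65.5 and 98.9 in 2D and between 301 and 535 in 3D. Snord47, in Gas5, was listed at 0 in 7 libraries and at 14690 FPKM in 2D mouse 5, a single library from which no difference is drawn.

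Snhg1 starts head to head with Slc3a2, the heavy chain of amino acid transporters. The 117 bases between their RefSeq starts, chr19:8723370-8723486 on the plus strand of GRCm38.p6, are shown as this stretch lies before both of these starts. The letters TATTTATA, 23 bases before the RefSeq start of Snhg1, are in capitals.
Slc3a2 to Snhg1: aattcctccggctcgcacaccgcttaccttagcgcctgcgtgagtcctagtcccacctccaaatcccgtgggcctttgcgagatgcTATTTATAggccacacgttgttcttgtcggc
These letters were searched in 32851 RefSeq promoters of 300 bases, of which 1.70% held them. One of the Gas5 starts in RefSeq begins with CTTTCGGA, a C followed by at least 4 pyrimidines, the pattern of transcripts with a terminal oligopyrimidine start, and 2.51% of the promoters had such a start. A match of letters is no evidence of use.

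Slc3a2 was at 115, 65.9, 53.5 and 102 FPKM in 2D and at 94.4, 108, 143 and 173 FPKM in 3D, and rose by 1.19 ± 0.26 on quantile normalized values (SE, limma adjusted p = 0.00808). On the deposited values its log2 fold change was 0.65 (limma adjusted p = 0.108). The ratio of Slc3a2 to Snhg1 in FPKM was between 0.83 and 1.46 in 2D and between 1.62 and 4.07 in 3D. Parp2, a DNA-damage ADP-ribosyltransferase whose start lies 125 bases from that of Rpph1, had a log2 fold change of 0.17 (limma adjusted p = 0.399), with a 95% interval from -0.17 to 0.52. Ccdc107, 280 bases from Rmrp, rose by 0.52 (limma adjusted p = 0.0129), and by 0.26 on the deposited values without passing the threshold (limma adjusted p = 0.159). Slc3a2, Parp2 and Ccdc107, like Rprl3 and Mir3470a, were chosen after their values were seen.

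Of 15 snoRNA host and related lncRNA genes, with Snhg1 and Gas5 included, 3 rose and 2 fell, beside 21.2% and 20.3% of all genes. The median was -0.19, and on the deposited values 3 rose and 4 fell with a median of -0.31. Snhg20 was between 13.2 and 25.3 FPKM in 2D and between 42.6 and 53.4 FPKM in 3D and rose by 1.73 ± 0.18 (SE, limma adjusted p = 0.000254). Snhg14, an imprinted host of many snoRNAs, rose by 0.92 (limma adjusted p = 0.0189), while Snhg18 fell by 1.23 (limma adjusted p = 0.00412) and Snhg5 by 0.42 (limma adjusted p = 0.0215). The call of Snhg14 was lost without 3D mouse 5 or 7 (limma adjusted p up to 0.0519) and that of Snhg5 without 2D mouse 4 or 5 or 3D mouse 7 (limma adjusted p up to 0.0608). Of 12 genes of nonsense-mediated decay, the pathway that degrades the spliced Snhg1 and Gas5 transcripts, 4 rose and 1 fell. Upf3b rose by 0.86 (limma adjusted p = 0.00122) and Upf3a, its paralogue, fell by 0.84 (limma adjusted p = 9.95e-05), from 24.99 to 28.8 FPKM in 2D to 12.97 to 14.8 FPKM in 3D. Smg9, a regulator of the kinase Smg1, rose by 0.78 (limma adjusted p = 0.00684).

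Among the protein subunits of RNase MRP and RNase P more genes fell than rose. Of 11 subunits, 1 rose and 5 fell, with a median of -0.29, and the counts were the same on the deposited values. Over all genes 21.2% rose and 20.3% fell, and 53.2% of genes with a mean of 1 FPKM or more passed in either direction. Pop1, the largest subunit, was between 8.24 and 22.01 FPKM in 2D and between 3.31 and 5.48 FPKM in 3D and fell by 1.62 ± 0.34 (SE, limma adjusted p = 0.00626). Rpp25 fell by 1.83 (limma adjusted p = 0.000839), whereas Rpp38 rose by 0.56 (limma adjusted p = 0.0366), a call lost without 2D mouse 3 or 5 or 3D mouse 4 or 7 (limma adjusted p up to 0.0931). The differences of mean log2 FPKM of their RNAs, 0.54 for Rmrp and 0.19 for Rpph1, did not pass the permutation test.

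Among 21 subunits and factors of RNA polymerase III, which makes Rmrp and Rpph1, 4 rose and 2 fell, beside 21.2% and 20.3% of all genes. The median was 0.20, while on the deposited values 6 rose and 3 fell with a median of 0.26. Gtf3c1 and Gtf3c2, subunits of transcription factor TFIIIC, rose by 0.79 (limma adjusted p = 0.000403) and 0.50 (limma adjusted p = 0.00250). Polr3d, a core subunit, fell by 0.96 (limma adjusted p = 0.000554), and Brf2, the factor used at promoters outside the gene such as those of Rmrp and Rpph1, fell by 0.94 (limma adjusted p = 0.000402), from 9.32 to 10.9 FPKM in 2D to 4.74 to 5.87 FPKM in 3D. Of 7 other small nuclear and polymerase III RNAs tested, 1 rose, namely Rnu12, the minor spliceosome RNA U12, by 2.00 ± 0.23 (SE, limma adjusted p = 0.000390), from 168 to 358 FPKM in 2D to 512 to 695 FPKM in 3D.

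The binding partners of the RNAs not analysed here were also measured. Of 10 genes of the 7SK particle and its cargo P-TEFb, 5 rose and 2 fell, beside 21.2% and 20.3% of all genes. The median was 0.35, and 0.01 on the deposited values. Hexim1, which inhibits P-TEFb when bound to 7SK, was between 6.88 and 13.8 FPKM in 2D and between 18.5 and 25.9 FPKM in 3D and rose by 1.11 ± 0.24 (SE, limma adjusted p = 0.00692). Ccnt2, a cyclin of P-TEFb, rose by 0.63 (limma adjusted p = 0.00462). Larp7, the protein that stabilizes 7SK, fell by 0.52 (limma adjusted p = 0.00998) and Cdk9, the kinase of P-TEFb, by 0.32 (limma adjusted p = 0.0119). Of 8 proteins that bind Y RNAs or the La protein's targets, 0 passed limma's adjusted threshold (3 at a raw p below 0.05), with a median of 0.03. On the deposited values 2 of the 8 fell and the median was -0.27.

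**Figure D4:**
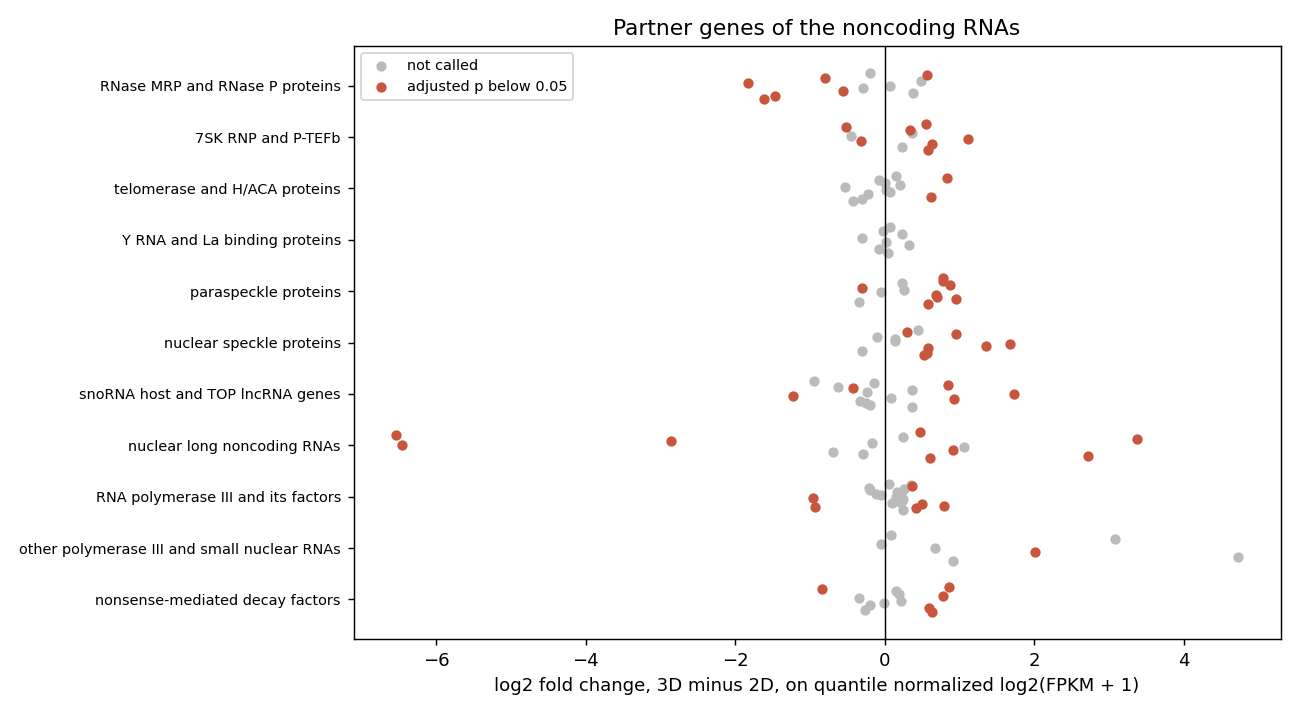
Log2 fold change (3D minus 2D, on quantile normalized log2(FPKM + 1)) of each tested gene in 11 lists of partner genes, 1 point per gene, coloured where limma's adjusted p was below 0.05. In the RNase MRP and RNase P list 5 of 6 called genes lie below 0, and in the nuclear speckle list all 7 lie above 0. Over all genes tested 41.5% were called, 21.2% above 0 and 20.3% below.

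The genes whose normalized levels were most like an RNA across the 8 libraries were found by Pearson's correlation among 12577 genes, as a description over points that share 2 culture types. For Neat1 they were Nisch (r = 0.999) and Prkcz (r = 0.994), for Malat1 Tmem241 (r = 0.988) and Cdkn2b (r = 0.975), and for Terc Ercc2 (r = 0.975) and Zfp526 (r = 0.971). The likeness was lower for Snhg1, with Aimp1 (r = 0.934) and Dgcr8 (r = 0.922), and intermediate for Gas5, with Zkscan17 (r = 0.970) and Ccdc163 (r = 0.964). For Rpph1 (Socs1, r = 0.983, and Gm12603, r = 0.978) the normalized values take only 4 distinct levels, so the likeness rests on its rank alone.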

How the data were processed

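Total RNA of 8 cultures was sequenced by the authors after rRNA depletion (directional libraries). Per the study's methods and the labels, reads were trimmed, mapped with TopHat to mm10, and turned into gene-level values with Cufflinks. FPKM values were deposited as Cufflinks gave them, without counts, and the quantile normalization named in the methods is not yet in them. The annotation is not given in the sources used here.

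The members and gene lists were chosen with earlier results of these data known. Genes at 0 in every library (5484) were left out, and 18862 were quantile normalized, converted to log2(FPKM + 1) (this scale understates changes of low genes) and compared with limma 3.58.1 in R 4.3.3 (moderated test with intensity trend, two-sided, Benjamini-Hochberg over all genes, no covariates). Named genes were the members, the 2 largest rises and 2 largest falls of each partner list with an adjusted p below 0.05, nested small RNAs, and the 2 genes most like each member (those of Rmrp are not reported here). For Rmrp and Rpph1 an exact permutation test on deposited log2 values was added after seeing the data. Mice 4 and 5 gave a library of each culture, which pairs them. Deviations of a mouse's libraries from the culture means correlated at -0.05 (mouse 4) and -0.11 (mouse 5) over 12577 genes. The step size of low FPKM values in 875 single-transcript genes gave the depth. Between 69.3% and 81.9% of these values lay within 0.15 of a whole multiple, so counts were not recovered. The 95% intervals come from the spread between libraries as moderated by limma, whose intensity trend widened those of Rmrp and Rpph1. Fragment numbers are estimates without an interval. Lengths and coordinates came from GENCODE M21 (GRCm38), matched by symbol for 95.7% of genes, and from RefSeq (GRCm38.p6). Alternatives were deposited values, median ratio scaling, genes under 300 bases left out, a pseudocount of 0.1, a mean of at least 1 FPKM, no trend, the mouse as a block or random effect, mice 4 and 5 only, and each library left out.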

Additional observations from a re-analysis of the deposited data

Results flagged for a closer look

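In 5 of the 22 groups of 4 libraries examined, 1 library stood apart from the other 3 by Dixon's criterion, which chance meets in about 1 of 20 groups. The 2D library of mouse 2 was high in Rmrp (158960 FPKM), Rpph1 (143868 FPKM) and Terc (67.6 FPKM). These 3 RNAs are short and were high in the same library, so they are not independent of each other. The 2D library of mouse 4 was low in Gas5 (25.2 FPKM). The 3D library of mouse 1 was low in the ratio of Rpph1 to Rmrp (0.350), and it is the library in which Rprl3 and Mir3470a were high. No cause was tested for these values.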

How the results depend on the processing

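Over all genes, 4000 were higher and 3823 lower in 3D. With the replicate block (the mouse as a fixed term, 1 residual degree of freedom) limma called 0 in either direction (5216 by raw p below 0.05), while mice 4 and 5 alone gave 1788 and 1432. Leaving out 1 library at a time gave 3393 to 4051 and 3204 to 3835. The number of the 7 RNAs called, 2 in the report, was 1 with median ratio scaling, 0 with the replicate block (1 by raw p below 0.05), 1 for mice 4 and 5 alone, and 1 to 2 with a library left out. The number without overlap, 1 in the report, was 3 with only mice 4 and 5 and 1 to 2 with a library left out. Of the 129 partner genes tested 38 rose and 16 fell, beside 21.2% and 20.3% of all genes. The number that fell was 26 on the deposited values, the replicate block gave 0 and 0 (33 of 129 at an unadjusted p below 0.05), only mice 4 and 5 gave 12 and 9, and a library left out gave 31 to 36 and 14 to 21. The log2 fold change of Rpph1 (-0.41) turned to 0.19 on the deposited values (also in the permutation test there) and 0.26 with median ratio scaling, and ranged from -0.78 to 0.39 with a library left out, the last without the 3D library of mouse 1. That of Snhg1 (-0.19) turned to 0.20 with the replicate block and to 0.20 with only mice 4 and 5. The 2D share of the FPKM total, 24.1%, was 16.4% over genes of at least 300 bases, a denominator that drops Rmrp, and 16.8% without the highest gene of each library, which is Rmrp or Rpph1 in 3 of the 4, and with a library left out it was 21.5% to 25.8% in 2D and 27.4% to 35.5% in 3D. Fewer libraries or degrees of freedom enter the block, the fits of mice 4 and 5 and those with a library left out. Otherwise the cause was not tested.

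Leaving out genes under 300 bases gives no fit for Rmrp. Fragment lengths and counts were not available, so values of RNAs shorter than a fragment are uncertain in level. The spread between 4 libraries set the precision, except in the limma intervals of Rmrp and Rpph1 and in the limma SE of Snord22. The 2D and 3D libraries also differ in stromal and epithelial markers throughout.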
